A study of Mus musculus with 14 samples.

Results

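The comparison described here is that of *Taf9b* KO mouse ES cells with WT ES cells in the undifferentiated state, read out as the log2 ratio of FPKM (fragments per kilobase of transcript, scaled to the number of mapped fragments, so a level relative to transcript length and library size) between 1 RNA-seq library labelled KO and 1 labelled WT. A locus was taken as a member when it lay above 1 FPKM in at least 1 of these libraries, which held for 12032 of the 23152 loci in the table. At that limit *Arhgap31* (0.834 FPKM in the library labelled WT and 1.002 in the library labelled KO) was just inside and *Plpp6* (0.998 and 0.965) just outside. Of the members, 11556 were mRNA loci, 136 small RNA loci (mostly snoRNAs and miRNA hairpins) and 340 other non-coding RNA loci.

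Both lines are C57BL/6 and were kept with LIF and serum on a layer of mitomycin-treated mouse embryonic fibroblasts. The WT line is the JM8 clone and the KO line is the Taf9b_BG10 clone, labelled TAF9B -/-, made by putting *LacZ-Neo* in the place of the protein-coding part of the X-linked *Taf9b* gene. Each side is thus 1 clone and 1 library, so genotype and clone cannot be told apart, no spread between replicates exists, and every ratio below is a description with no test. The series compares the same clones as embryoid bodies (EBs) driven towards motor neurons with retinoic acid and a smoothened agonist for 2, 4 and 6 days, and newborn WT and KO spinal column, again with 1 library per side. These share no library with the ES cell comparison and are used here to show which ES cell differences recur.

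TAF9B is a paralog of TAF9, a histone-fold subunit shared by TFIID, the complex that recognizes core promoters and helps to place RNA polymerase II, and by the SAGA co-activator complex. Pluripotent ES cells hold high levels of *Pou5f1*, *Sox2* and *Nanog*. In serum and LIF a minor share of them also carries transcripts of the primitive streak, the site where mesoderm forms, and these depend on Wnt and FGF signalling.

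More *Taf9b* RNA was listed for KO than for WT. Its level was 0.537 FPKM in the library labelled WT and 3.06 in the library labelled KO, and the log2 ratio was 2.51. The same order held at EB day 2 (0.516 and 4.08 FPKM), day 4 (1.96 and 4.27) and day 6 (1.37 and 4.01), and was turned around in spinal column (6.65 and 3.31). This gene-level value does not test the deletion, because the table counts reads over the whole transcript. In the GENCODE annotation of mm9 the gene lies on the minus strand at chrX:103402222-103416497, and its 8-exon transcript ends in a 3′UTR of 1614 bases. The outer genotyping primers of the study are shown because they flank the replaced part of the gene.

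outer 5′ primer: aattccaggaaactccgagg
outer 3′ primer: taaggcgatgagaggtggg

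The outer 5′ primer matched the minus strand at chrX:103415256-103415275 and the outer 3′ primer the plus strand at chrX:103403334-103403352, inside the 3′UTR. The former lies in the first intron of the 8-exon transcript. Between them lay 11903 bases with 7 of the 8 coding segments of that transcript, and with all coding segments of the annotated transcript that starts further downstream. Exon 1 of the 8-exon transcript (82 bases) and 1131 bases of the 3′UTR lay outside that interval. The study's forward primer for the 3′ end of the KO allele matched chromosome X at a single place, chrX:103399400-103399421, 362 bases beyond the end of the *Pgk1* locus. Directions are therefore given by label throughout.

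*Pgk1*, the glycolytic phosphoglycerate kinase gene, ends 3.17 kb from the *Taf9b* locus (chrX:103382463-103399038) and was the lowest of the 833 mRNA loci with a mean above 100 FPKM. Its level was 855 FPKM in the library labelled WT and 585 in the library labelled KO, and the log2 ratio was -0.55. The distance was larger in the EBs, with 535 and 252 FPKM at day 2, 601 and 139 at day 4, and 295 and 145 at day 6, and was not seen in spinal column (350 and 384 FPKM). In ES cells no other member among the nearest 5 loci on either side differed by as much. *Cox7b*, a cytochrome oxidase subunit, read 163 and 174 FPKM, *Magt1* 10.4 and 10.1, *Atp7a*, a copper transporter, 3.48 and 3.27, and *Fndc3c1* 3.43 and 3.28. *Tlr13*, between *Atp7a* and *Pgk1* and below the level limit for members, read 0.00989 FPKM in the library labelled WT and 0.427 in the library labelled KO. In the EBs *Fndc3c1* differed too, with 31.4 and 14.9 FPKM at day 4 and 7.98 and 1.26 at day 6.

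Most transcripts were alike in both libraries. The log2 ratio of all members had a median of 0.02 with quartiles of -0.08 and 0.11. Of the 12032 members, 64.4% lay within 1.1-fold and 97.3% within 1.5-fold. By sign alone, 56% of members were higher and 44% lower in the library labelled KO, the background for every list below. Past 2-fold were 136 loci, or 1.13%, with 65 higher (0.54%) and 71 lower (0.59%) in the library labelled KO. Small RNA loci were 1.13% of members and 54.4% of the loci past 2-fold. Among mRNA loci 50 of 11556 (0.433%) passed it, 22 higher (0.19%) and 28 lower (0.242%), and among other non-coding RNA loci 12 of 340 (3.53%). With a pseudocount of 1 FPKM 25 of the 50 mRNA loci fell under 2-fold.

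**Figure D1:**
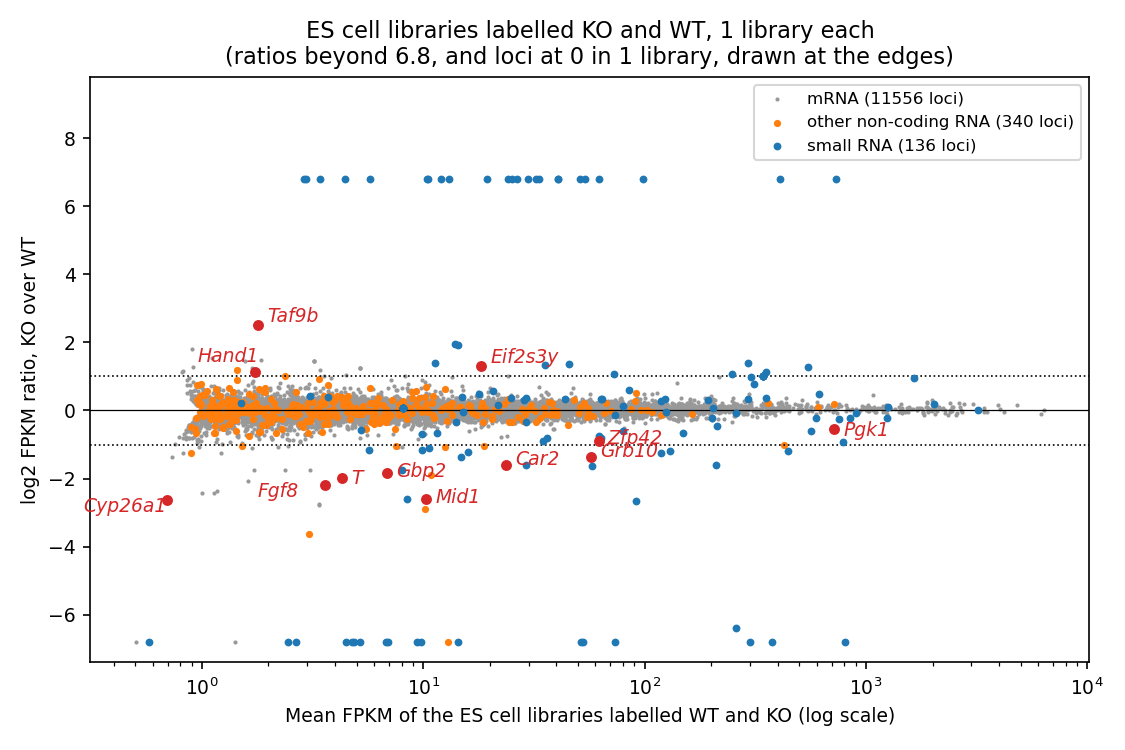
Log2 FPKM ratio (library labelled KO over library labelled WT) against the mean FPKM of both ES cell libraries, 1 point per member, coloured by class of RNA, with the 2-fold limits dotted and named genes in red. The 11556 mRNA loci lie in a narrow band whose width shrinks with level, and many of the 136 small RNA loci lie far outside it or at the edges, where loci listed at 0 in 1 library are drawn.

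The width of the band depended on level, as the plot of ratio against mean FPKM shows. For mRNA loci with a mean up to 2 FPKM the quartiles were -0.20 and 0.16, and 23 of 1225 lay past 2-fold. Above 100 FPKM the quartiles were -0.02 and 0.11, and none of 833 did. The counts behind the values are unknown. Among 2606 loci below 0.15 FPKM in both libraries the ratio of KO to WT was most often close to 1.30 or 1.246, which is what 1 fragment was worth in one library relative to the other if single fragments make up these values. The WT library also stands in a table beside spinal cord, and its values over 11870 loci there differed by a constant log2 offset of 0.12 with an SD of 0.000323.

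Small RNA loci, which a poly-A library catches only in passing, gave the extreme ratios. Of the 136, 41 were higher (30.1%) and 33 lower (24.3%) past 2-fold, 54.4% in all. Of the 44 members listed at 0 in 1 library 42 were small RNAs, among them *Snord42b* (1614 FPKM in the library labelled WT and 0 in the library labelled KO), *Snord72* (756 and 0) and *Snord99* (601 and 0). In the other direction *Snord19* (0 and 1468 FPKM) and *Snord34* (0 and 820) were listed at 0 in the library labelled WT. *Snora68*, a guide RNA for pseudouridylation, read 157 and 24.8 FPKM. At EB day 2 *Snora68* read 271 and 259 FPKM. *Mir684-1* stood at several loci with the same values (229 and 459 FPKM), since its copies share their reads.

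The miRNA loci *Mir692-1* and *Mir1906-2* were lower past 2-fold for KO in every culture. *Mir1906-2* read 44.1 and 14.5 FPKM in ES cells and 16.04 and 6.18 at EB day 6, but 101 and 240 in spinal column. In ES cells *Mir692-1* (chr17:7099578-7099686) read 514 FPKM in the library labelled WT and 6.16 in the library labelled KO. At EB days 2, 4 and 6 it read 4107 and 9.26, 7228 and 4.62, and 2497 and 5.46 FPKM, and it was near 0 in both spinal column libraries. Its hairpin in RefSeq (GRCm38.p6) has the same letters as the mm9 locus. The FPKM values count reads over the hairpin locus in poly-A libraries, and the level of the mature miRNA was not measured. The mature miRNA, shown because this locus had the lowest ratio among members above 1 FPKM in both libraries, is shared with 2 further hairpins in RefSeq, and the capitals mark its seed (bases 2 to 8).

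mmu-miR-692: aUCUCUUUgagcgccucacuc

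The markers of ES cells were alike in both libraries with 1 exception. *Pou5f1*, the pluripotency factor OCT4, read 859 FPKM in the library labelled WT and 880 in the library labelled KO. *Nanog* read 168 and 182 FPKM and *Sox2* 233 and 229. *Zfp42* (REX1), a marker of the naive state, read 80.6 and 43.3 FPKM, and its log2 ratio was -0.90. Of the 14 loci of a core pluripotency list, which shares *Zfp42* with the naive list, the median log2 ratio was 0.08, and *Zfp42* was the lowest and *Lin28a* (0.20), an RNA-binding repressor of let-7, the highest. Of 17 naive pluripotency loci 12 were lower and 5 higher, with a median of -0.14. Among the lower ones were *Prdm14* (6.35 and 4.63 FPKM), *Nr5a2* (12.7 and 9.98), *Tbx3* (17.8 and 14.02) and *Esrrb* (135 and 119), all transcription factors of the naive network. The highest of the 17 was *Dppa3*, with a log2 ratio of 0.23. None of these lay past 2-fold.

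Several genes of the primitive streak and of the Wnt response were lower in the library labelled KO, while others on the same lists were close or higher. Brachyury (*T*), the mesodermal T-box factor, read 6.86 FPKM in the library labelled WT and 1.75 in the library labelled KO. *Fgf8*, a streak FGF ligand, read 5.87 and 1.30. *Eomes*, another T-box factor, read 3.59 and 2.24, and the ligand *Wnt3* 2.24 and 1.44. Of the 20 genes of the streak list 7 were members, 6 of them lower, with a median log2 ratio of -0.64 against 0.02 for all members and 2 past 2-fold. *Cdx1* (-0.14) and *Rspo3* (-0.06) were close to level and *Pdgfra* (0.46) was higher. Of 14 Wnt target loci 10 were lower and 4 higher, with a median of -0.26 and 2 past 2-fold (*T* and *Sp5*). *Sp5*, a direct Wnt target that encodes an SP-family factor, read 10.5 and 4.97 FPKM, *Lef1*, a nuclear effector of Wnt signalling, 3.77 and 2.10, *Notum*, a secreted Wnt antagonist, 3.63 and 2.21, and *Axin2*, the feedback inhibitor, 6.31 and 5.06. The cyclins on the list went the other way, *Ccnd1* with 109 and 137 FPKM and *Ccnd2* with 38.2 and 44.6.

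The upstream sequences of *T* and *Sp5* are shown because both genes are Wnt targets past 2-fold. They are the 250 bases before the RefSeq start (GRCm38.p6 sequence, found unchanged in mm9 on the plus strand at chr17:8627038-8627287 and chr2:70312730-70312979). Capitals mark CTTTGA or its reverse complement TCAAAG, the core letters bound by TCF/LEF factors, searched on both strands.

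*T* upstream: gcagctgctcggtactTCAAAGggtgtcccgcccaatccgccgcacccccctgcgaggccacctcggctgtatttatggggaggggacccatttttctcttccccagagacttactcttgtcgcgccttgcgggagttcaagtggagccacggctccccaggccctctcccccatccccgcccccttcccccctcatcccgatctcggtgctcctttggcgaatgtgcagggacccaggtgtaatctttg
*Sp5* upstream: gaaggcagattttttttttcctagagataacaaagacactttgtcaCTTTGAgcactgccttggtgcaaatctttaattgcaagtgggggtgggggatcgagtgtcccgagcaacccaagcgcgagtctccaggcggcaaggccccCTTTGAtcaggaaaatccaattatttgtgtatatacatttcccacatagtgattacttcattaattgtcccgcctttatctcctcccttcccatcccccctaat

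The motif stood once in the *T* window and at 2 places in that of *Sp5*. It stood in 13.8% of all 32851 such windows, and not in those of *Axin2* or *Cyp26a1*. A match describes letters only.

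The order held at EB day 2 for most of these genes and turned around for several of them at day 4. At day 2 *T* read 12.6 FPKM in the library labelled WT and 0.822 in the library labelled KO, *Fgf8* 5.35 and 0.657, and *Sp5* 1.33 and 0.145. At day 4 *T* read 0.0998 and 0.0914 FPKM, *Fgf8* 0.304 and 0.485, and *Sp5* 0.83 and 1.59. Other streak genes were higher for KO at day 4, with *Wnt3* at 0.753 and 4.10 FPKM, *Eomes* at 0.177 and 0.728, and the homeobox gene *Cdx1* at 1.54 and 18.8. The median of the 7 streak loci was -0.63 at day 2, 1.91 at day 4 and 1.65 at day 6, with some of the loci near 0 in both libraries at the later days. *Cyp26a1*, the retinoic acid hydroxylase, read 1.19 and 0.193 FPKM in ES cells and 3.89 and 0.209 at day 2. After that it was high in both lines, with 96.2 and 77.5 FPKM at day 4 and 173 and 68.0 at day 6. On the retinoic acid list *Rdh10*, a retinol dehydrogenase, had a log2 ratio of -0.44.

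**Figure D2:**
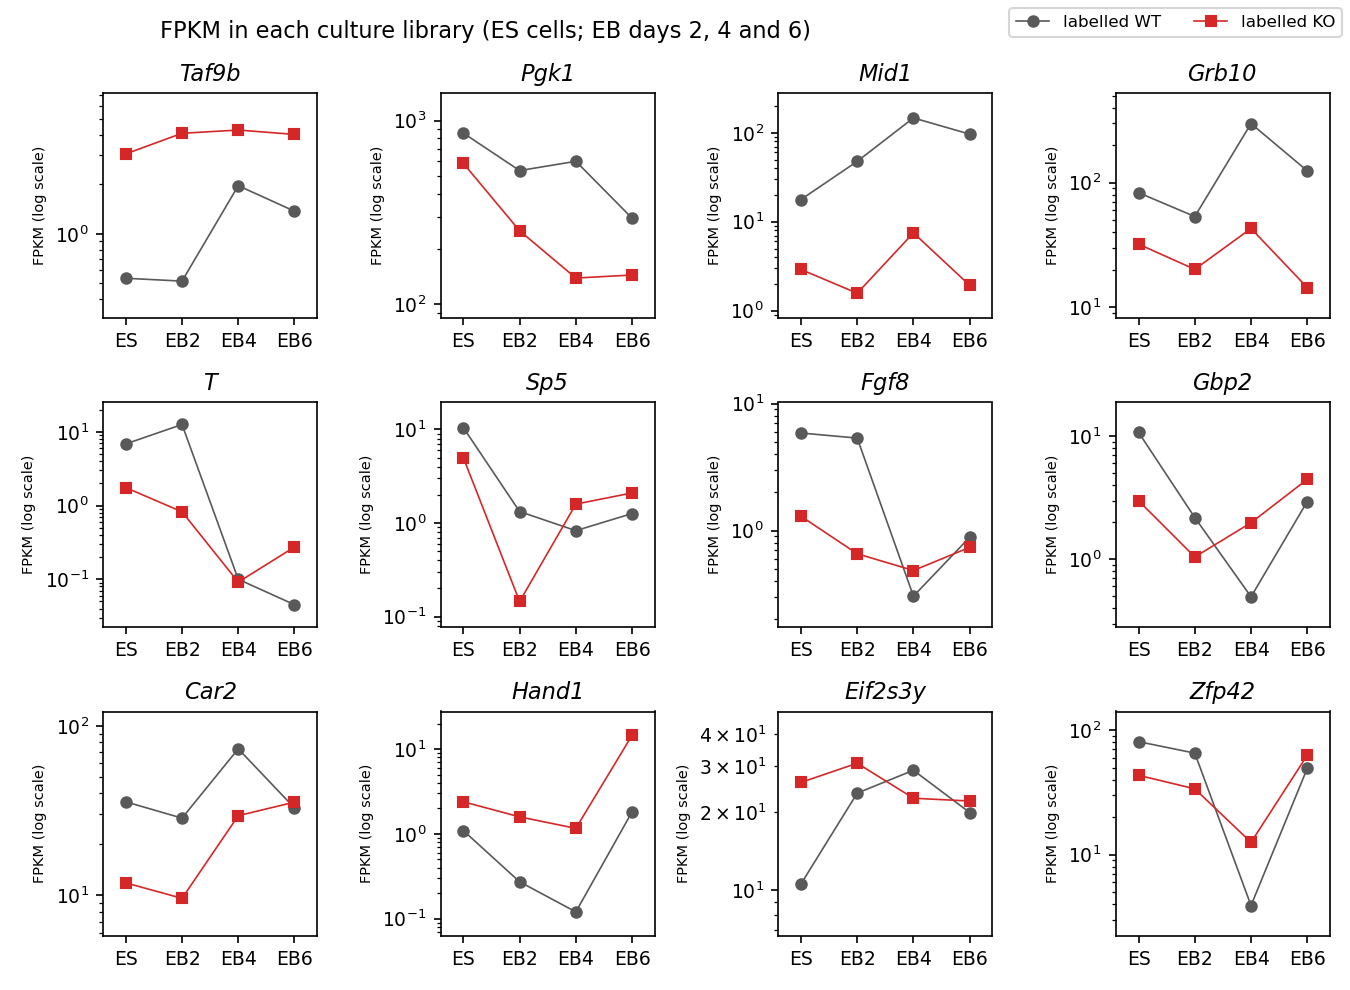
FPKM (log axis, each panel with its own range) of 12 genes in the libraries labelled WT (grey circles) and KO (red squares) of ES cells and EB days 2, 4 and 6, 1 library per point. *Taf9b* and *Hand1* are higher and *Pgk1*, *Mid1* and *Grb10* lower in the library labelled KO at every stage, while *T*, *Fgf8*, *Sp5* and *Gbp2* are lower in ES cells and at EB day 2, and at day 4 *T* is close in both libraries and the other 3 are higher.

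Primed epiblast genes were mixed. *Fgf5*, an epiblast ligand, read 1.71 FPKM in the library labelled WT and 0.721 in the library labelled KO, and the homeobox gene *Otx2* 2.88 and 1.71. In the other direction the de novo DNA methyltransferase *Dnmt3b* read 93.9 and 133 FPKM, with a log2 ratio of 0.50, the highest of the 14 members. The median was -0.15, with 9 lower and 5 higher, and 0.02 among the members above 5 FPKM. Of 11 trophectoderm loci 8 were higher, with a median of 0.26. *Hand1*, a bHLH factor of trophoblast and lateral mesoderm, was the member past 2-fold, at 1.09 and 2.39 FPKM, *Krt7* read 5.01 and 9.31, and *Krt19*, another keratin, was the lowest at 30.2 and 17.8. The defining trophectoderm factor *Cdx2* was at 0.44 and 0.345 FPKM. Among BMP targets *Id2*, an inhibitor of bHLH factors, read 15.99 and 32.5 FPKM while *Id1* read 21.9 and 22.0. The primitive endoderm markers *Gata4*, *Gata6*, *Sox17* and *Sox7* all stayed below 1 FPKM in both libraries.

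Interferon-inducible and immune genes were a group among the lower mRNAs that was listed after their values were seen. Of 24 members 17 were lower, with a median of -0.24 and 5 lower past 2-fold, against 0.59% of all members. Of these 5, *Gbp2b*, *Isg15* and *Il15ra* are members through the library labelled WT alone, so only *Gbp2* and *Psmb8* lay above 1 FPKM in both. *Gbp2*, a guanylate-binding GTPase, read 10.7 FPKM in the library labelled WT and 2.99 in the library labelled KO. Its neighbour *Gbp2b* read 2.82 and 0.000302, *Psmb8*, an immunoproteasome subunit, 3.67 and 1.09, the ubiquitin-like modifier *Isg15* 2.64 and 0.793, and the receptor *Il15ra* 1.05 and 0.407. At EB day 2 *Gbp2* read 2.18 and 1.04 FPKM and *Psmb8* 3.50 and 1.48. The order was turned around at day 4, where *Gbp2* read 0.495 and 1.98, *Psmb8* 0.898 and 2.17 and *Isg15* 0.311 and 0.797, and the median of the list's 24 loci was 0.82. Other genes of the same response differed less, among them *B2m* (70.2 and 77.1 FPKM), *Ifitm3* (347 and 398) and *Psmb9*, another immunoproteasome subunit (4.12 and 5.06).

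Fibroblast transcripts, as a feeder layer leaves them, were present in both libraries. All 30 genes of the feeder list were members, 21 of them higher for KO. Their median log2 ratio was 0.13 and their summed level was 1694 FPKM in the library labelled WT and 1801 in the library labelled KO. *Col1a1* read 158 and 170 FPKM, *Postn* 9.08 and 9.45, and *Ccl2*, a chemokine, was the highest at 12.1 and 18.2. None lay past 2-fold and none was at 0. More feeder cells and more RNA per cell cannot be told apart in bulk samples, and the part of feeder RNA in the differences above was not tested.

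**Figure D3:**
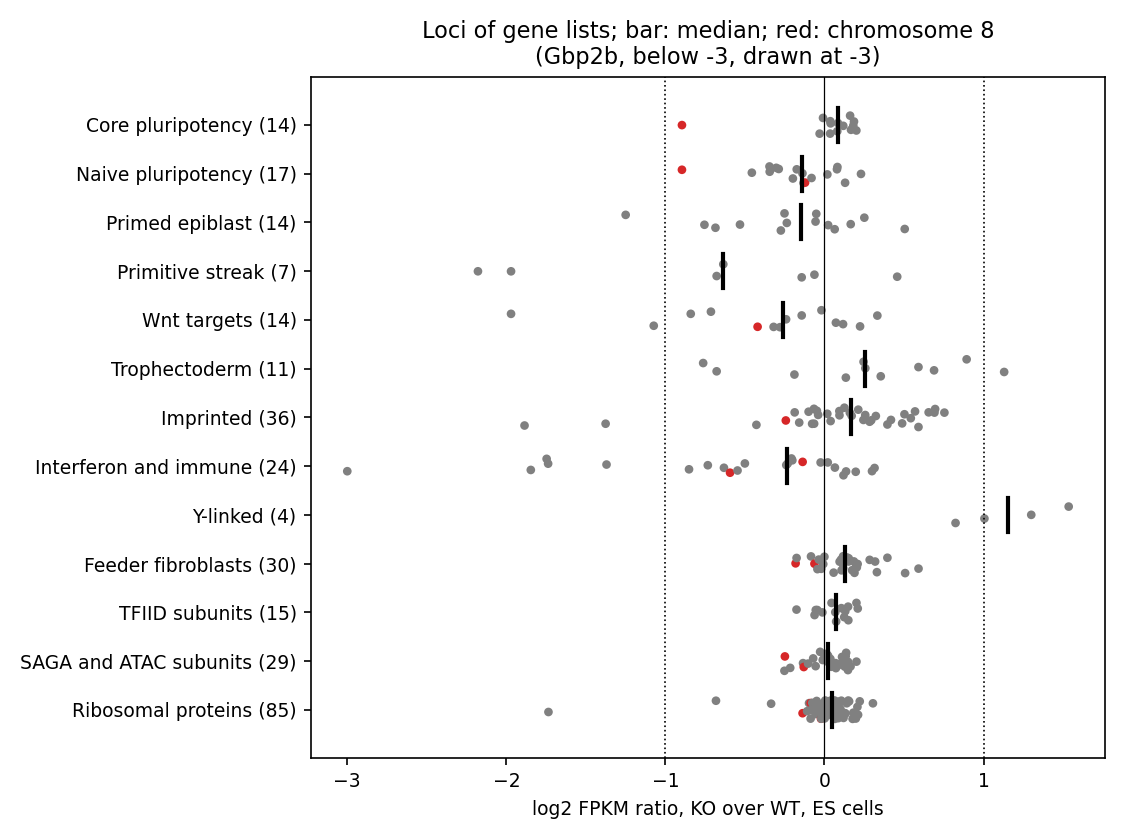
Log2 FPKM ratio (library labelled KO over library labelled WT, ES cells) of the members of 13 gene lists, 1 point per locus, with the median as a bar, the 2-fold limits dotted, and loci of chromosome 8 in red. The primitive streak (median -0.64), Wnt target (-0.26) and interferon lists (-0.24) lie to the left and the Y-linked genes (1.15) to the right, while TFIID, SAGA and ATAC subunits lie close to 0.

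The partners of TAF9B were level. Of the 15 TFIID loci, without *Taf9b* itself, the log2 ratios ran from -0.18 (*Taf3*) to 0.21 (*Tbpl1*) with a median of 0.07. The paralog *Taf9*, whose locus is listed jointly with *Ak6*, read 120 FPKM in the library labelled WT and 129 in the library labelled KO. The 29 SAGA and ATAC loci had a median of 0.02, 31 mediator loci -0.0012 and 27 loci of general transcription factors and RNA polymerase II subunits 0.05. The lowest of the last group was *Gtf2e2* (-0.39), a TFIIE subunit on chromosome 8. Among 85 ribosomal protein loci the median was 0.05, and *Rpl39l*, the testis-enriched copy of RPL39, stood apart with 4.75 and 1.43 FPKM. The 16 DNA methylation genes had a median of 0.08 and the 51 histone loci 0.07, with *H4c2* past 2-fold (2.08 and 4.76 FPKM). A set of 15 further lists with 260 members in all, among them cell cycle, p53 target, apoptosis, oxidative phosphorylation, cholesterol, Nodal, LIF/STAT3, neuronal and neural progenitor genes, had medians between -0.11 and 0.13. None of their members lay past 2-fold, where 0.433% of all mRNA members did. Lists with such a member are described on their own and are not part of this set.

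Loci of chromosome 8 were lower as a group. Of its 658 members 577 (87.7%) were lower in the library labelled KO, where 44% of all members were, and the median log2 ratio was -0.18, or 0.882-fold. The medians of the other autosomes lay between -0.03 (chromosome 11) and 0.05 (chromosome 13), and that of chromosome X was 0.04. The shift ran along the whole chromosome. In 7 windows of 20 Mb the medians lay between -0.24 and -0.14, while 129 such windows on other chromosomes had medians between -0.05 and 0.11. It was present at every level, with a median of -0.23 for the 72 loci up to 2 FPKM and -0.13 for the 43 loci above 100 FPKM. Past 2-fold were 5 lower and 1 higher of its loci, all small RNAs except *Calb2*. Most single loci differed by less, as in these examples: *Cnot1*, the scaffold of the deadenylase complex, read 113 and 87.7 FPKM, *Ash2l*, a histone methyltransferase subunit, 156 and 127, and *Hmgb2* 406 and 371. The metallothioneins *Mt1* (1727 and 2054 FPKM) and *Mt2* (1743 and 2049), also on chromosome 8, went the other way.

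**Figure D4:**
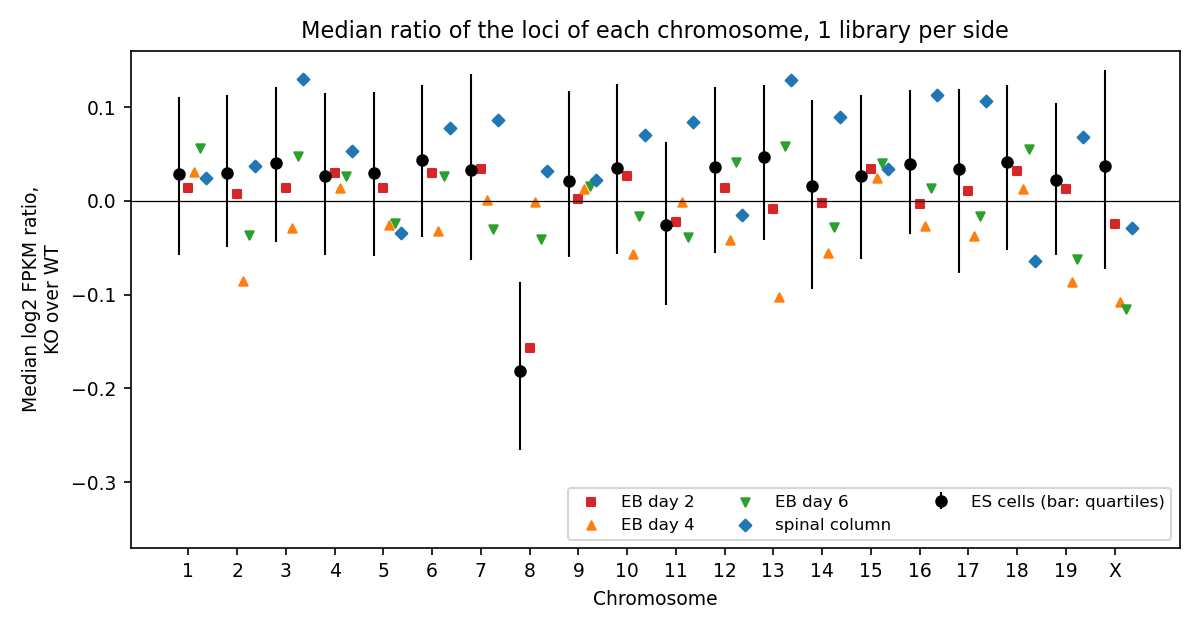
Median log2 FPKM ratio (library labelled KO over library labelled WT) of the loci of each chromosome, for ES cells (black, bars from the lower to the upper quartile of loci), EB days 2, 4 and 6 and spinal column, 1 library per side. Chromosome 8 stands apart in ES cells (-0.18) and at EB day 2 (-0.16) and not in the other comparisons.

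The plot of chromosome medians shows that the shift recurred at EB day 2, where chromosome 8 had a median of -0.16 and 79.5% of its loci were lower. At day 4 the median was -0.000793, at day 6 -0.04 and in spinal column 0.03. DNA copy number was not measured, and its part in the shift was not tested. *Zfp42*, *Calb2* (a calcium-binding protein, 2.62 and 0.623 FPKM) and *Gtf2e2* lie on chromosome 8, and their distances exceed its median. Leaving chromosomes 8 and Y out, the median of all members was 0.03.

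**Figure D5:**
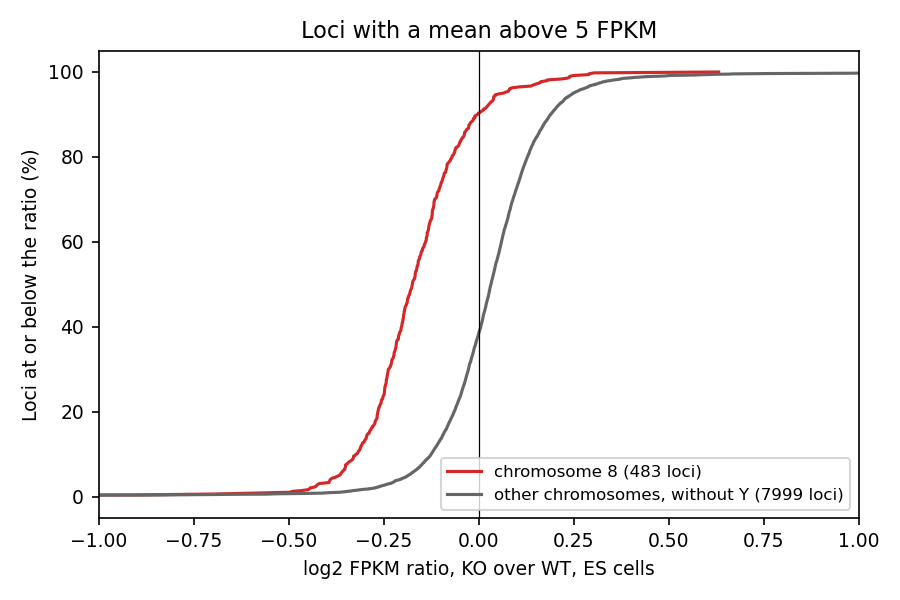
Cumulative share of loci (percent) against the log2 FPKM ratio (library labelled KO over library labelled WT, ES cells) for loci with a mean above 5 FPKM on chromosome 8 (red) and on the other chromosomes without Y (grey). The curve of chromosome 8 lies to the left of the other.

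All 4 Y-linked members were higher in the library labelled KO. *Eif2s3y*, a translation initiation factor subunit, read 10.6 FPKM in the library labelled WT and 26.0 in the library labelled KO, the RNA helicase gene *Ddx3y* 7.39 and 13.1, *Uty* 2.38 and 4.77, and the demethylase gene *Kdm5d* 0.569 and 1.65. *Kdm5d* is a member through the library labelled KO alone. The values of all 4 were also added up. The summed level of the 4 was 20.9 and 45.5 FPKM. Their counterparts on the X chromosome did not follow, with a median log2 ratio of 0.06 over 7 loci and summed levels of 644 and 652 FPKM. At EB day 2 all 4 were higher for KO as well, with *Eif2s3y* at 23.6 and 30.8 FPKM. At day 4 *Eif2s3y* read 28.9 and 22.6 FPKM and *Uty* 5.37 and 5.32, while *Ddx3y* read 6.07 and 8.24 and *Kdm5d* 0.0166 and 1.16. At day 6 all 4 were higher for KO, with *Eif2s3y* at 19.9 and 22.03 FPKM and *Uty* at 2.53 and 3.14.

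Imprinted genes, expressed from 1 parental allele, included both higher and lower loci. Of 36 loci 24 were higher for KO. The median was 0.17, and both loci past 2-fold were lower. *Grb10*, a growth-inhibiting adaptor of insulin signalling, read 83.1 FPKM in the library labelled WT and 32.0 in the library labelled KO, and remained lower at EB day 2 (53.4 and 20.1), day 4 (299 and 42.8) and day 6 (125 and 14.3), and by less in spinal column (201 and 177). *Ddc* beside it read 4.75 and 3.53 FPKM, and the non-coding locus *1700042O10Rik*, 32.4 kb from *Grb10*, read 1.25 and 0.530. *Mirg*, a maternally expressed non-coding RNA of the *Dlk1-Dio3* domain, read 17.1 and 4.62 FPKM, while *Meg3* (14.1 and 15.03) and *Rian* (42.6 and 53.3) of the same domain did not. The highest members were *Gnasas1* (0.75) and *Peg12* (0.70).

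*Mid1*, an X-linked microtubule-associated ubiquitin ligase, had the lowest ratio among mRNA loci above 1 FPKM in both libraries. It read 17.8 FPKM in the library labelled WT and 2.91 in the library labelled KO, and the log2 ratio was -2.61. The difference was wider in the EBs, with 47.7 and 1.57 FPKM at day 2, 147 and 7.495 at day 4 and 96.5 and 1.93 at day 6, and small in spinal column (6.88 and 6.41). Of its neighbours, *Hccs*, a heme lyase, read 12.3 and 12.1 FPKM and *Msl3*, a subunit of a histone acetyltransferase complex, 4.41 and 4.32. *G530011O06Rik*, which overlaps its locus, read 2.04 and 0.984, and reads of overlapping genes may have been split between them.

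Several of the differing genes lie side by side. *Car2* and *Car3*, carbonic anhydrases 14.1 kb apart on chromosome 3, read 35.6 and 11.8 FPKM and 1.70 and 0.313. *Sp5* and *Gad1*, the latter a glutamate decarboxylase gene (3.30 and 1.59 FPKM), lie 12.2 kb apart on chromosome 2, and *Gbp2b* and *Gbp2* 1.49 kb apart on chromosome 3. On chromosome 14 *Plac9b* (1.73 and 4.70 FPKM) and *Tmem254a* (3.08 and 7.29) stood in 3 copies each with identical values, so their reads cannot be assigned to 1 copy. Other lower mRNAs were *Ccnb1ip1* (1.92 and 0.358 FPKM) and *Syce3*, a synaptonemal complex protein (2.29 and 1.08), while a list of germline genes was balanced, with 7 of 14 members higher and 7 lower, a median of -0.03 and none past 2-fold. Among the higher ones *Insm1*, a zinc-finger factor of neuroendocrine cells, read 2.92 and 6.03 and *Foxi3* 5.51 and 11.1.

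The ES cell differences recurred at EB day 2. Of the 28 mRNA loci that were lower past 2-fold in ES cells, 22 lay above 1 FPKM at day 2, and all 22 were lower there, 19 of them past 2-fold. Over all mRNA members above 1 FPKM at day 2, 49.7% were lower and 0.687% lower past 2-fold. Several of the 19, among them *T*, *Fgf8*, *Sp5* and *Cyp26a1*, lay above 1 FPKM at day 2 in the library labelled WT alone. For such loci the filter itself favours a lower value. With every library above 1 FPKM, 14 lower and 7 higher loci of all classes recurred past 2-fold, against 32 and 18 without that limit. The 19 loci were 67.9% of the ES cell list and 25% of the 76 members lower past 2-fold at day 2. *Sprr2a2* is counted at 2 loci among them, and the 28 lower loci stand for 27 symbols. Of the 22 higher mRNA loci 19 were measured at day 2, 18 were higher, and 11 were past 2-fold, against 0.588% of all members. Of these 11, 6 are the repeated copies of *Plac9b* and *Tmem254a*, so they stand for 7 symbols. Of the 29 higher small RNA loci measured at day 2, 7 were higher and 5 lower past 2-fold, and of the 24 lower ones 8 were lower and 5 higher, where 16.8% of all 113 small RNA members were higher and 19.5% lower.

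At later stages the loci split in both directions. At EB day 4, 15 of the 28 lower mRNA loci were measured, with 9 lower and 6 past 2-fold, where 2.05% of all mRNA members were. At day 6, 11 of 17 were lower and 6 past 2-fold (6.24% of all), and in spinal column 6 of 20 were lower and 1 past 2-fold (5.29% of all). Past 2-fold in the opposite direction were 3 of these loci at day 4, 1 at day 6 and 7 in spinal column, where the median log2 ratio of the 20 was 0.49. Of the higher mRNA loci, 9 of 14 were higher past 2-fold at day 4, where 10.7% of all mRNA members were, 10 of 18 at day 6 (8.75%) and 7 of 17 in spinal column (6.48%), and 1, 2 and 3 were lower past 2-fold. The copies of *Plac9b* and *Tmem254a* make up 3, 6 and 6 of those higher past 2-fold, which stand for 7, 6 and 3 symbols. Across 11091 loci above 1 FPKM in all 4 libraries, Spearman's rho between the ES cell and day 2 ratios was 0.32, and 0.28 without chromosomes 8 and Y. It was 0.05 at day 4, 0.12 at day 6 and 0.20 in spinal column. The cultures share their clones, and genes are not independent replicates.

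Past 2-fold in the same direction in ES cells and on EB days 2, 4 and 6 were 14 symbols, 10 lower and 4 higher. Past 2-fold either way were 2.58% of loci above 1 FPKM at day 2, 16.5% at day 4, 20.4% at day 6 and 17.6% in spinal column. Besides *Mir692-1*, *Mid1* and *Grb10*, the lower ones included *Gm5779* (5.67 and 0.456 FPKM in ES cells), *4930470H14Rik* (17.9 and 2.41), *Fxyd6*, a regulator of the sodium pump (25.1 and 12.3), and *AA465934* (10.2 and 4.94). The last of these read 71.8 and 3.19 FPKM at day 6. The higher ones were *Taf9b*, *Hand1*, *Tmem254a* and *3830417A13Rik* (0.98 and 2.72 FPKM in ES cells, 4.32 and 25.9 at day 6).

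TAF9B and RNA POL2 binding was mapped in EB-derived motor neurons of another line, not in ES cells, so it bears on these genes only as a description. Of the 10175 mRNA members with an annotated start, 34.0% had a TAF9B peak within 1 kb of it. Of the 26 lower past 2-fold 5 had one (19.2%), namely *Car2*, *Fxyd6*, *Grb10*, *Mid1* and *Psmb8*, and of the 14 higher ones 2 had one, *Id2* and *Stmn4*. For POL2 the shares were 58.9% of all members, 7.69% of the lower loci and 14.3% of the higher loci. Members with a mean up to 5 FPKM, where most of the differing loci lie, had a TAF9B peak in 29.9% and a POL2 peak in 38.4%.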

How the data were processed

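Poly-A RNA-seq libraries were analysed as deposited. The authors mapped reads to RefSeq genes with TopHat and computed FPKM values with Cuffdiff (build mm9 per the labels; versions are not given in the sources used here). The score of a ChIP-seq peak is the MACS score the authors deposited, and only peak positions were used. The tables also hold the authors' fold changes and p-values, which were not used.

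Members and lists were chosen with earlier results of these data known. Columns were assigned to samples by label. Symbols came from RefSeq accessions (GRCm38.p6 names), leaving 111 members without one. Log2 ratios were taken without a pseudocount, and a locus listed at 0 in 1 library stands beyond all measured ratios in medians and counts. Tables were joined by first accession and locus, leaving out 43 loci with a repeated key. Other tables were normalized separately, so levels were compared within a table only. No read counts are given: absolute depth is unknown, and no interval was computed. Of the members 13 carry the status FAIL and were kept.

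Named were *Taf9b*, the 15 highest and 15 lowest loci above 1 FPKM in both libraries, the highest 5 per direction of those at 0, list extremes and members past 2-fold, loci recurring on every EB day, the nearest 5 loci of *Taf9b* and *Mid1*, and genes the study names for ES cells. Of these the text prints a selection. Other genes were named after their values were seen. Some genes are not reported here. The lists comprise 33 written by hand, 1 added after seeing the data (interferon), and 2 by symbol pattern. The counting was tested on simulated data. Python 3.11.15, numpy 2.4.6, pandas 2.3.3 and matplotlib 3.10.9 were used.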

Additional observations from a re-analysis of the deposited data

Results flagged for a closer look

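Loci other than small RNAs that lay above 1 FPKM in both libraries of each comparison, past 2-fold one way in ES cells and past 2-fold the other way elsewhere, are given here. With 1 library per side the difference was not tested. *Insm1* was higher for KO in ES cells (2.92 and 6.03 FPKM, in the order WT and KO) and had a log2 ratio of -1.43 at EB day 4 and -2.65 at day 6. *Mirg*, whose locus also holds *Mir412* and *Mir369*, was lower in ES cells (17.1 and 4.62 FPKM) and had 2.23 at EB day 6 and 2.74 in spinal column. *Gm20362* was lower in ES cells (17.0 and 8.05 FPKM) and had 1.38 at EB day 6.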

How the results depend on the processing

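Of 600 values recomputed, 560 stayed within the limits given next and 40 moved. Of all 600, 12 changed sign, all of them medians of 9 lists whose main values lay between -0.15 and 0.01, and no value past 2-fold did. A median counted as moved past 0.0944, which is the spread between loci and not between replicates, and a count past 1.5 times. The ratio of a named locus counted as moved only when it fell under 2-fold, so a smaller shift is not seen. The count of loci past 2-fold (136, with 65 higher and 71 lower) was 66, 31 and 35 with both libraries above 1 FPKM, 2653, 1052 and 1601 without a filter, and 62, 24 and 38 without small RNA loci, a setting chosen after seeing the data. At 1.5-fold it was 324, 150 and 174, and at 3-fold 74, 28 and 46. The streak median moved to -0.41 with a pseudocount of 1 FPKM and -1.97 above 5 FPKM, the interferon median to -0.14 above 5 FPKM, and the Y median to 0.76 with the pseudocount and 1.01 with both libraries above 1 FPKM. With the pseudocount the count past 2-fold was 103 (49 higher and 54 lower), and 25 of the 50 mRNA loci fell under 2-fold, among them *Sp5* (-0.94), *Cyp26a1* (-0.88), *Fgf5* (-0.66), *Il15ra* (-0.54), *Insm1* (0.84), *Id2* (0.98), *Uty* (0.77), *Hand1* (0.70) and *H4c2* (0.90).

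Of the ES cell loci past 2-fold, those past it in the same direction elsewhere numbered, for higher and lower, 18 and 32 at EB day 2, 11 and 23 at day 4, 18 and 19 at day 6 and 11 and 6 in spinal column. With both libraries above 1 FPKM they were 7 and 14, 4 and 13, and 8 and 9 on the EB days, and 1 lower in spinal column. Without small RNA loci they were 11 higher at day 2, 12 lower at day 4, 11 and 10 at day 6, and 7 and 2 in spinal column. With small RNA loci kept, 18 higher ones passed 1.5-fold in spinal column. These settings keep fewer loci or use another limit by construction.

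No paired analysis was possible because each side is 1 library, and for the same reason no library was left out. Depth is unknown, and the width of the band of ratios at each level is the only measure of precision here.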
